A study of Mus musculus with 71 samples.

Results

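Triglyceride is built on a glycerol backbone, and the genes described here supply that backbone or attach fatty acids to it. They were chosen by name as Pck1, Gpd1, Aqp7, Gpam, Agpat2, Lpin1, Dgat1 and Dgat2, and every probe set annotated to exactly 1 of them was taken. This gave 15 probe sets for 7 of the 8 genes, out of 22626 probe sets that were not controls, and Agpat2 was not analysed here. Where a gene had several probe sets, the main probe set was the brightest over the 71 arrays, and the others are given beside it.

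The cells were adipocytes differentiated from 3T3-L1, a mouse preadipocyte line, or from C3H/10T1/2, a mouse mesenchymal line. They received 1 μM rosiglitazone (RSG), an agonist of the nuclear receptor PPARγ, or the vehicle DMSO, and were harvested at 6 times, after 1, 2, 4 or 7 hrs and later after 24 or 48 hrs. Each of the 24 groups had 3 arrays, except for 3T3-L1 with DMSO at 2 hrs, which had 2. All groups had been through a washout of 24 hrs without serum, in medium with 1% albumin, and stayed in that medium. In the paper's preliminary data this washout optimally raised the response to RSG, as judged by Pdk4 and Pck1. RSG had also been part of differentiation in both lines and both treatment arms, at 0.1 μM for 2 days in 3T3-L1 and at 10 μM for 6 days in C3H/10T1/2, so the DMSO arm was withdrawn from the drug rather than never exposed to it. In 3T3-L1, days with insulin and then in plain medium came between RSG and the washout. C3H/10T1/2 had RSG until its differentiation ended. Time off the drug thus differed between the lines and cannot be told apart from the line itself. Replicates came from separate batches of differentiated cells of 1 line each, with wells pooled at harvest. RNA was measured on Affymetrix 430A arrays, and the values below are MAS5 signals on a linear scale, where a signal under 19.9 counted as not present. In such bulk RNA, fewer cells of a type and less RNA per cell cannot be told apart.

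White adipocytes have little glycerol kinase, so the glycerol 3-phosphate that starts triglyceride synthesis comes mainly from glucose, or from smaller carbon precursors through glyceroneogenesis. Pck1 encodes the cytosolic phosphoenolpyruvate carboxykinase, the control step of glyceroneogenesis. Gpd1 encodes the cytosolic dehydrogenase that reduces dihydroxyacetone phosphate to glycerol 3-phosphate, and Aqp7 encodes the aquaglyceroporin through which adipocytes release glycerol. Gpam and the Agpat enzymes add the fatty acyl chains that make phosphatidate, Lpin1 removes its phosphate to give diacylglycerol, and Dgat1 or Dgat2 adds the last chain. Pck1 and Aqp7 are textbook targets of PPARγ in adipocytes.

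Signal levels were alike among the arrays of a line. The median signal was 50.2 to 64.2 over the 35 arrays of 3T3-L1 and 38.2 to 46.9 over the 36 arrays of C3H/10T1/2, with 67.8% to 73.9% and 62.1% to 67.7% of probe sets present. The summed signal of 7 adipocyte marker genes was 27571 to 39049 with RSG and 24663 to 35527 with DMSO in 3T3-L1, and 22391 to 32973 with RSG and 22840 to 31642 with DMSO in C3H/10T1/2. The summed signal of 8 preadipocyte and fibroblast markers was 11263 to 20428 with RSG and 14524 to 21156 with DMSO in 3T3-L1, and 8246 to 13761 with RSG and 9386 to 15150 with DMSO in C3H/10T1/2. No gene of either list was below the limit on every array of a line and treatment. At the late times the fibroblast markers were lower with RSG than with DMSO. Of their 14 probe sets, 5 were called lower at 24 hrs in 3T3-L1 and 9 at 48 hrs, with a median log2 fold change of -0.66 and -0.84. The share of all probe sets of that line called in either direction was 11.8% and 14.3%. The C3H/10T1/2 arrays had 6 and 5 lower at these times, at a median of -0.64 and -0.62, and none was called higher. There the share of all was 7.72% and 5.41%. Of the 13 adipocyte marker probe sets, 4 were called higher and 1 lower at 24 hrs in 3T3-L1 (median 0.40). By 48 hrs these were 2 and 1 (median 0.23). The C3H/10T1/2 arrays had 2 higher and 0 lower at 24 hrs (median 0.14), then 2 and 1 at 48 hrs (median 0.08). The part of these fibroblast signals in the results below was not tested. Of the brown adipocyte markers, Ucp1, which defines these cells, was below the limit on every array of both lines. Cidea, a lipid droplet protein and the other gene of that list, was higher with RSG in both lines, by 1.51 (adjusted p = 0.0375) and 2.92 (adjusted p = 5.71e-05) on the log2 scale at 24 and 48 hrs in 3T3-L1 and by 1.22 (adjusted p = 0.0165) and 1.95 (adjusted p = 0.000199) in C3H/10T1/2. With DMSO, Cidea was lower in 3T3-L1 than in C3H/10T1/2 (-3.08), and in C3H/10T1/2 it was lower at 24 hrs (-2.15) and 48 hrs (-2.80) than at 1 hr.

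The sequence before the transcription start is shown for Pck1, Aqp7 and Lpin1, on which the results below mainly turn and whose windows hold a match. Gpd1, Dgat1 and Dgat2 had no entry. Each run is the 250 bases before the start in gene orientation, from RefSeq on GRCm38.p6, with matches to AGGTCA, the hexamer of nuclear receptor sites, or to ACGTCA, the core of the cyclic AMP response element, in capitals on either strand.
Pck1, chr2:173152823-173153072, plus strand: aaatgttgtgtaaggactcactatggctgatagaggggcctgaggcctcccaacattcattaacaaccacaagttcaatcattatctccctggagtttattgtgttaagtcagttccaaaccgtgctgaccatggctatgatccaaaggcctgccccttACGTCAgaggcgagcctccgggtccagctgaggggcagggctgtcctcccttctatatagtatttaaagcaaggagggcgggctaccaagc
Aqp7, chr4:41047963-41048212, minus strand: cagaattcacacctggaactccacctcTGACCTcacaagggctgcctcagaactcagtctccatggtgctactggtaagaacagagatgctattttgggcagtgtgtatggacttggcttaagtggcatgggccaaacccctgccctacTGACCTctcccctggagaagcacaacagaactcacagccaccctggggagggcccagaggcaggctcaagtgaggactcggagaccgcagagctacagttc
Lpin1, chr12:16610967-16611216, minus strand: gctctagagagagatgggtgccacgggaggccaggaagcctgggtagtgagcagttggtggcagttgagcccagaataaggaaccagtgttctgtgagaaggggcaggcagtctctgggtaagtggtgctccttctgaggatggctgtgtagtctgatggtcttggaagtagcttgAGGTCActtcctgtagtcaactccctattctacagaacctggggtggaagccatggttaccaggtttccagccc
The match in Pck1 was ACGTCA, 91 to 86 bases before the start. Aqp7 held the reverse complement of AGGTCA at 223 to 218 and at 101 to 96 bases before this start, and Lpin1 held AGGTCA at 74 to 69 bases. Gpam, not printed, held AGGTCA at 196 to 191 and ACGTCA at 32 to 27 bases before 1 of its starts. AGGTCA on either strand was in 14.0% and ACGTCA in 6.47% of all 32851 such windows. A repeat of AGGNCA with 1 base between the copies, in which AGGTCA can be a part, was in 0.34% of all windows, and TATAAA was in 12.4%. Neither was in any window of the 5 genes of the set that had one, so these letters were not found here and nothing follows about sites elsewhere.

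Pck1 was higher with RSG than with DMSO from 2 hrs in both lines, but the lines differed after 7 hrs. Both means in C3H/10T1/2 were lower at 2 hrs than at 1 hr, 492 and then 363 with RSG, against 441 and then 134 with DMSO. In 3T3-L1 the difference between RSG and DMSO persisted through 48 hrs. In C3H/10T1/2 it was no longer called at 24 or 48 hrs, when the DMSO arrays had reached the level of the RSG arrays to within 1.35-fold.

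In 3T3-L1 at 2 hrs, the main Pck1 probe set (1423439_at) read 235.7, 157.4 and 136 with RSG, against 34.6 and 26.8 with DMSO. The groups did not overlap, and the log2 fold change was 2.49 (SE 0.32), with an adjusted p of 7.92e-05 in limma, adjusted over all 18028 probe sets tested in that line. At 7 hrs it read 251.2, 265.5 and 278.1 with RSG, against 83.3, 50.3 and 33.4 with DMSO, a log2 fold change of 2.35 (SE 0.29, adjusted p = 4.04e-06). By 24 hrs it read 349, 547.6 and 420.5 with RSG, against 127.3, 111.4 and 95.6 with DMSO. At 48 hrs it read 829.9, 708.1 and 567.9 with RSG, against 79.3, 184.7 and 160.3 with DMSO. Every RSG array lay above every DMSO array at these times, with log2 fold changes of 1.96 (adjusted p = 1.33e-05) at 24 hrs and 2.38 (adjusted p = 3.77e-07) at 48 hrs. At 1 hr the 3 RSG arrays, 82.5, 96 and 89.6, were already above the 3 DMSO arrays, 41, 54.1 and 25.7, but the log2 fold change of 1.21 did not pass the test (adjusted p = 0.227).

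Pck1 in C3H/10T1/2 at 1 hr read 471.9, 445.4 and 557.5 with RSG and 401.2, 394.1 and 527.2 with DMSO, and the groups overlapped. At 2 hrs it read 396.7, 340.8 and 352.2 with RSG, against 104.3, 117.5 and 179.8 with DMSO, a log2 fold change of 1.48 (adjusted p = 1.87e-06). By then the groups were apart, the DMSO arrays being far below their level of 1 hr. At 4 hrs it read 566.4, 437.8 and 404.9 with RSG, against 67.6, 78.6 and 82.8 with DMSO. The log2 fold change was 2.61 (SE 0.16, limma adjusted p = 2.79e-12 over 16123 probe sets), or 6.11-fold. RSG arrays at 4 hrs were thus near the level of 1 hr, while DMSO arrays were lower still. At 7 hrs it read 691.6, 756.6 and 679.2 with RSG, against 120.2, 131.8 and 150.1 with DMSO, again without overlap (log2 fold change 2.41, adjusted p = 2.59e-11). At 24 hrs Pck1 read 1023.9, 1073.3 and 1032.3 with RSG, against 759, 795.8 and 765 with DMSO. These groups did not overlap either, but the log2 fold change was 0.43 (SE 0.16, adjusted p = 0.11), and at 48 hrs it was 0.37 (adjusted p = 0.23). The effect at 24 hrs minus that at 7 hrs was -1.98 (SE 0.23, adjusted p = 1.97e-05) on the log2 scale, a comparison added after the values were seen. In 3T3-L1 the same difference was -0.39 (SE 0.41, adjusted p = 0.853).

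The DMSO arrays moved more over time in C3H/10T1/2 than the fold changes at single times show. Mean Pck1 signal with DMSO was 441, 134, 76.3, 134, 773 and 826 at the 6 times. It fell by 2.52 on the log2 scale between 1 and 4 hrs (adjusted p = 3.66e-12) and was higher by 3.35 at 24 hrs than at 4 hrs (adjusted p = 2.5e-15), both comparisons added after the values were seen. With RSG the means were 492, 363, 470, 709, 1043 and 1054. The rise between 4 and 24 hrs was 1.17 with RSG (adjusted p = 3.26e-05). In 3T3-L1 the DMSO means were 40.3, 30.7, 43.7, 55.7, 111 and 141, and at 48 hrs Pck1 with DMSO was higher than at 1 hr by 1.79 (adjusted p = 0.000217). Comparisons at 1 time and over time share their DMSO arrays, so they are not independent. The second Pck1 probe set (1455209_at) lay between 11.7 and 43 in 3T3-L1, between 6.4 and 22.9 in C3H/10T1/2, near or under the limit, and was called in no RSG comparison.

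**Figure D1:**
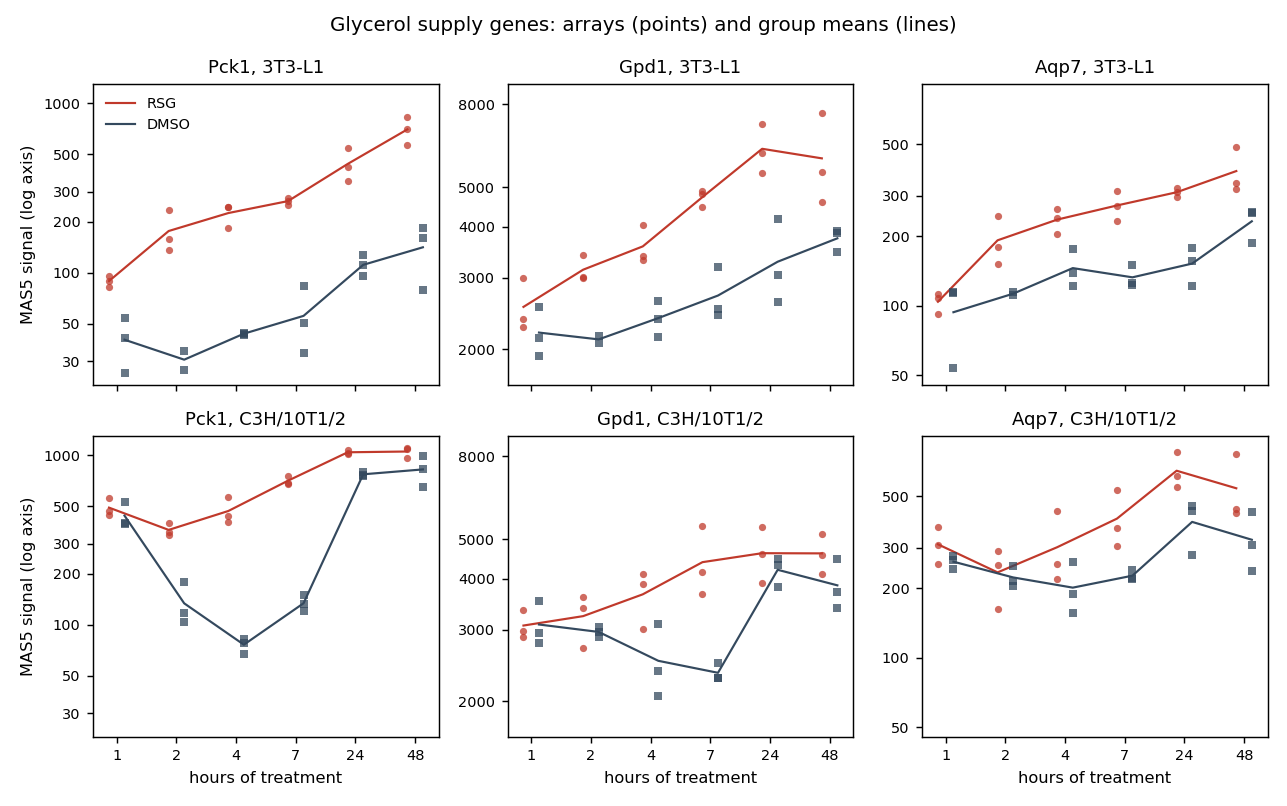
MAS5 signal (log axis) of the main probe sets of Pck1, Gpd1 and Aqp7 against hours of treatment (times evenly spaced), with RSG (circles) and DMSO (squares) in 3T3-L1 (top) and C3H/10T1/2 (bottom). Points are arrays and lines join group means. Pck1 in C3H/10T1/2 averaged 470 with RSG and 76.3 with DMSO at 4 hrs, and 1043 with RSG and 773 with DMSO at 24 hrs.

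Gpd1 was higher with RSG than with DMSO at 7 hrs in both lines and stayed higher in 3T3-L1. Its main probe set (1448249_at) read 4909.8, 4477.7 and 4813.4 with RSG at 7 hrs in 3T3-L1, against 3190.3, 2514.6 and 2424 with DMSO. The log2 fold change was 0.81 (SE 0.16, adjusted p = 0.00403). Readings at 24 hrs were 7176.5, 6061 and 5429.2 with RSG, against 4181.8, 3046.4 and 2618.4 with DMSO, a log2 fold change of 0.94 (adjusted p = 0.000151). At 48 hrs the log2 fold change was 0.62 (adjusted p = 0.0084, or 0.000123 with the replicate number as a block). It was 0.42 (adjusted p = 0.112) without RSG replicate 1, the highest array at 7626.6.

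Gpd1 in C3H/10T1/2 read 5379.8, 3662.5 and 4146.7 with RSG at 7 hrs, against 2478.1, 2282.7 and 2284.8 with DMSO. The log2 fold change was 0.89 (SE 0.15, adjusted p = 0.000557), and no array overlapped. Later, at 24 hrs, it read 4609.2, 3904.4 and 5360.7 with RSG and 4331.7, 3813.9 and 4484.7 with DMSO. The groups overlapped, with a log2 fold change of 0.13 (adjusted p = 0.726). With DMSO, Gpd1 was higher at 24 hrs than at 4 hrs by 0.76 (adjusted p = 0.0012). The effect at 24 hrs minus that at 7 hrs was -0.76 (SE 0.22), which did not pass the test (adjusted p = 0.158).

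The second Gpd1 probe set (1416204_at) was also called in 3T3-L1, by 1.03 on the log2 scale at 24 hrs (adjusted p = 0.0297) and 1.39 at 48 hrs (adjusted p = 0.00229), and by 1.23 at 7 hrs in C3H/10T1/2 (adjusted p = 3.13e-05). The call at 24 hrs in 3T3-L1 was lost on leaving out any of 4 arrays, RSG replicate 1 or 2 or DMSO replicate 2 or 3, with adjusted p up to 0.19. At 48 hrs the value was 0.92 without DMSO replicate 1, which read 1155.6 against 3384.1 and 2837.5 in the other DMSO arrays. The other Gpd1 probe sets, 1439396_x_at at 82.1 to 335 and 1456732_at at 0.3 to 25.8, were called in no RSG comparison, and 1456732_at was not tested because no group mean reached the limit.

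Aqp7 was called from 7 hrs onward in 3T3-L1. Its main probe set (1418848_at) read 269, 314.2 and 231.9 with RSG at 7 hrs, against 122.7, 125.7 and 149.5 with DMSO. The log2 fold change was 1.03 (SE 0.23, adjusted p = 0.00892, or 0.00392 with the replicate block). Readings at 24 hrs were 323.7, 296.9 and 309.5 with RSG, against 156.7, 178.4 and 121.3 with DMSO, a log2 fold change of 1.04 (adjusted p = 0.00174). All RSG arrays were higher than all DMSO arrays at both times. The call at 7 hrs was lost without RSG replicate 2 (0.92, adjusted p = 0.0688) or DMSO replicate 2 (0.99, adjusted p = 0.0581). At 48 hrs the log2 fold change was 0.71 (adjusted p = 0.03, or 0.0184 with the replicate block). Without the block, the call was lost on leaving out RSG replicate 1 (0.53, adjusted p = 0.193) or DMSO replicate 1 (0.57, adjusted p = 0.165).

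Aqp7 in C3H/10T1/2 read 546.8, 614.8 and 777.1 with RSG at 24 hrs, against 277.4, 433.3 and 452.5 with DMSO. The log2 fold change was 0.75 (SE 0.26) and did not pass (adjusted p = 0.0784), although no array overlapped. The values were 0.78 (adjusted p = 0.114) at 7 hrs and 0.73 (adjusted p = 0.112) at 48 hrs. When the replicate number, which paired the arrays of this line, entered as a block, the adjusted p at 7, 24 and 48 hrs was 0.0379, 0.0275 and 0.0411. The line difference in the RSG effect at 24 hrs was 0.29 (95% interval -0.43 to 1.01, adjusted p = 0.887). The second Aqp7 probe set (1418849_x_at) was called in no RSG comparison.

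Gpam, the mitochondrial acyltransferase that starts triglyceride synthesis, was called once. In 3T3-L1 at 48 hrs its main probe set (1419499_at) read 794, 987 and 700.1 with RSG, against 548.8, 517.7 and 559.1 with DMSO. The groups did not overlap, and the log2 fold change was 0.60 (SE 0.15, adjusted p = 0.00475, or 0.000175 with the replicate block). Without RSG replicate 2 it was 0.46 (adjusted p = 0.0549). It was 0.29 (adjusted p = 0.225) at 24 hrs, and in C3H/10T1/2 the 6 values were 0.01 to 0.33 with none called. The second Gpam probe set (1425834_a_at) was called in no RSG comparison.

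Lpin1 was higher with RSG than with DMSO in both lines, in C3H/10T1/2 with RSG means below that of 1 hr at the times called. At 7 hrs in C3H/10T1/2 its main probe set (1418288_at) read 1051.2, 756.8 and 840.2 with RSG, against 664.1, 485.3 and 511.5 with DMSO, a log2 fold change of 0.67 (SE 0.13, adjusted p = 0.00173). At 24 hrs it read 1127.2, 1155.2 and 1206.4 with RSG, against 833.5, 752.7 and 755.1 with DMSO. The RSG arrays were all higher, with a log2 fold change of 0.58 (adjusted p = 0.00356), and without the replicate block Lpin1 was the only gene of the set called in C3H/10T1/2 at 24 hrs. With the block, Aqp7 (0.75, adjusted p = 0.0275) and Dgat2 (-0.36, adjusted p = 0.0252) passed too. At 4 hrs the value was 0.50 (adjusted p = 0.0519, or 0.0273 with the replicate block), and at 48 hrs it was 0.24 (adjusted p = 0.375).

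With DMSO in C3H/10T1/2, mean Lpin1 signal was 1238, 880, 504, 554, 780 and 1061 at the 6 times. It fell by 1.30 on the log2 scale between 1 and 4 hrs (adjusted p = 3.9e-08), and was higher by 0.63 at 24 hrs than at 4 hrs (adjusted p = 0.00114). With RSG the means were 1234, 936, 715, 883, 1163 and 1254, and the mean at 4 hrs was again below that at 1 hr, a difference that was not tested.

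In 3T3-L1 at 24 hrs, Lpin1 read 1337.1, 881.5 and 947.7 with RSG, against 703, 484.4 and 560.8 with DMSO. The log2 fold change was 0.85 (SE 0.21, adjusted p = 0.00649, or 1.06e-05 with the replicate block). The call was lost without RSG replicate 1 (0.67, adjusted p = 0.0753) or DMSO replicate 2 (0.72, adjusted p = 0.0532). The second Lpin1 probe set (1426516_a_at) had log2 fold changes of 0.58 (adjusted p = 0.0325) at 24 hrs in 3T3-L1 and 0.85 (adjusted p = 0.00419) at 7 hrs in C3H/10T1/2. The call of the second probe set was lost on leaving out any of 5 of the 6 arrays in 3T3-L1 (all but DMSO replicate 1), with adjusted p up to 0.157, and without RSG replicate 1 in C3H/10T1/2 (0.68, adjusted p = 0.0597).

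Dgat1, 1 of the enzymes of the last acylation, was higher with RSG than with DMSO at 7 hrs in both lines. At 7 hrs in C3H/10T1/2 its probe set (1418295_s_at, where the suffix marks probes that may match several transcripts) read 2750.2, 2174 and 2739.1 with RSG, against 1626, 1660.6 and 1610.8 with DMSO. The log2 fold change was 0.64 (SE 0.11, adjusted p = 0.000463). The mean with RSG was 2594 at 1 hr and 2554 at 7 hrs, and with DMSO it was 2450 and 1632. The value was 0.18 (adjusted p = 0.372) at 24 hrs and, at 48 hrs, 0.06 (adjusted p = 0.888). In 3T3-L1 the log2 fold changes were 0.53 (adjusted p = 0.0132) at 7 hrs, 0.46 (adjusted p = 0.011) at 24 hrs and 0.41 (adjusted p = 0.0202) at 48 hrs. With the replicate block the adjusted p was 0.0034, 0.0034 and 0.00732. Without the block, each of these calls was lost on leaving out single arrays. At 7 hrs this was RSG replicate 1 (adjusted p = 0.0917) or 2 (0.0791), or DMSO replicate 2 (0.077) or 3 (0.0559). At 24 hrs it was RSG replicate 1 (adjusted p = 0.105) or DMSO replicate 2 (0.0546), and at 48 hrs RSG replicate 1 (adjusted p = 0.163) or DMSO replicate 1 (0.051) or 3 (0.0546).

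For Dgat2, the other enzyme of that step, the main probe set (1422678_at) was called in no RSG comparison. At 48 hrs in C3H/10T1/2 it read 1844.1, 1886.6 and 2075 with RSG, against 2451.6, 2369.3 and 2418.5 with DMSO. All RSG arrays were below all DMSO arrays, but the log2 fold change of -0.32 (SE 0.12) did not pass (adjusted p = 0.131). At 24 hrs it was -0.36 (adjusted p = 0.0661, or 0.0252 with the replicate block). In 3T3-L1 the values were 0.33 (adjusted p = 0.267) at 24 hrs and 0.21 (adjusted p = 0.521) at 48 hrs. The second Dgat2 probe set (1422677_at) was higher in 3T3-L1 at 48 hrs, by 0.73 on the log2 scale (adjusted p = 0.037). It was lost without RSG replicate 1 (0.61, adjusted p = 0.166) or 3 (0.78, adjusted p = 0.0594), and was 0.31 (adjusted p = 0.437) without DMSO replicate 1, which read 374.9 against 919.9 and 878.4 in the other DMSO arrays.

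**Figure D2:**
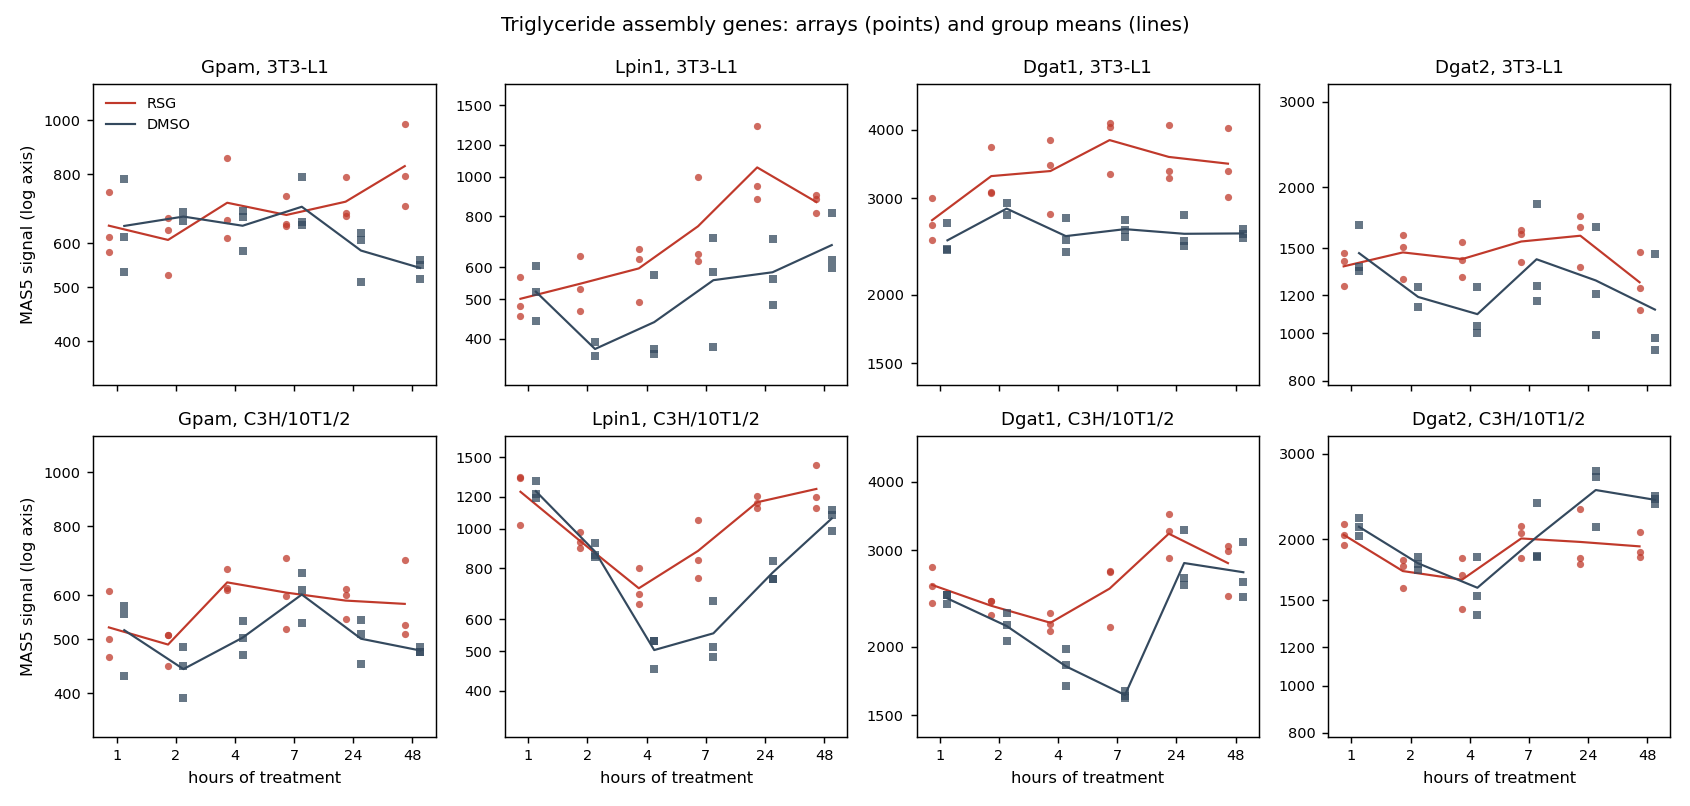
MAS5 signal (log axis) of the main probe sets of Gpam, Lpin1, Dgat1 and Dgat2 against hours of treatment (times evenly spaced), drawn with RSG as circles and DMSO as squares, 3T3-L1 on top and C3H/10T1/2 below. Points are arrays and lines join group means. Lpin1 in C3H/10T1/2 averaged 715 with RSG and 504 with DMSO at 4 hrs, below the 1234 and 1238 of 1 hr.

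Counted over probe sets, the test of RSG called 0, 1, 1, 4, 7 and 7 of the 14 tested in 3T3-L1 at the 6 times, all higher. Over all probe sets of that line, the share called in either direction was 0.0666%, 0.172%, 0.716%, 2.04%, 11.8% and 14.3%, and the share called higher was 0.0388%, 0.111%, 0.544%, 1.22%, 4.79% and 6.2%. The counts in C3H/10T1/2 were 0, 1, 1, 6, 1 and 0 of 13, again all higher. The shares over all probe sets there were 0.0434%, 0.229%, 0.763%, 2.85%, 7.72% and 5.41% in either direction, and 0.0372%, 0.149%, 0.533%, 1.65%, 3.65% and 2.79% higher. So the count for the set went down after 7 hrs in C3H/10T1/2, while the count over all probe sets was higher at 24 and 48 hrs than at 7 hrs. At 48 hrs in C3H/10T1/2, 4 of the 13 had an unadjusted p under 0.05, and the methods' test, an unadjusted p under 0.05 with a fold of at least 1.2, called 4, against 15.6% of all probe sets. With the replicate block, limma called 4, 3 and 1 of the 13 in C3H/10T1/2 at 4, 24 and 48 hrs, against 1.49%, 12.6% and 9.43% of all, so that the count at 48 hrs was no larger a share than that over all probe sets. In fits of only the arrays compared, the main probe sets of Gpd1, Aqp7, Gpam and Dgat1 at 48 hrs and of Dgat1 at 7 hrs in 3T3-L1, and of Lpin1 and Dgat1 at 7 hrs in C3H/10T1/2, no longer passed, with adjusted p of 0.0537 to 0.176. At 1 hr, 1 of 14 in 3T3-L1 and 0 of 13 in C3H/10T1/2 had an unadjusted p under 0.05.

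The median log2 fold change of the 14 probe sets in 3T3-L1 was 0.13, 0.39, 0.43, 0.42, 0.58 and 0.51 at the 6 times. Over the 13 in C3H/10T1/2 it was -0.01, 0.12, 0.50, 0.67, 0.23 and 0.27. The medians over all probe sets lay between -0.07 and 0.04. Probe sets of 1 gene share their RNA and are not separate measurements of the pathway. By main probe set, 5 of the 7 genes were called at 24 and 5 at 48 hrs in 3T3-L1, and 4, 1 and 0 at 7, 24 and 48 hrs in C3H/10T1/2. The fibroblast markers called lower with RSG, 5 and 9 of 14 in the 3T3-L1 arrays and 6 and 5 of 14 in those of C3H/10T1/2, were called at 24 and 48 hrs, and none was called earlier. Beside them, 11.8% and 14.3% of all probe sets were called in either direction for 3T3-L1. For C3H/10T1/2 the share was 7.72% and 5.41%.

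**Figure D3:**
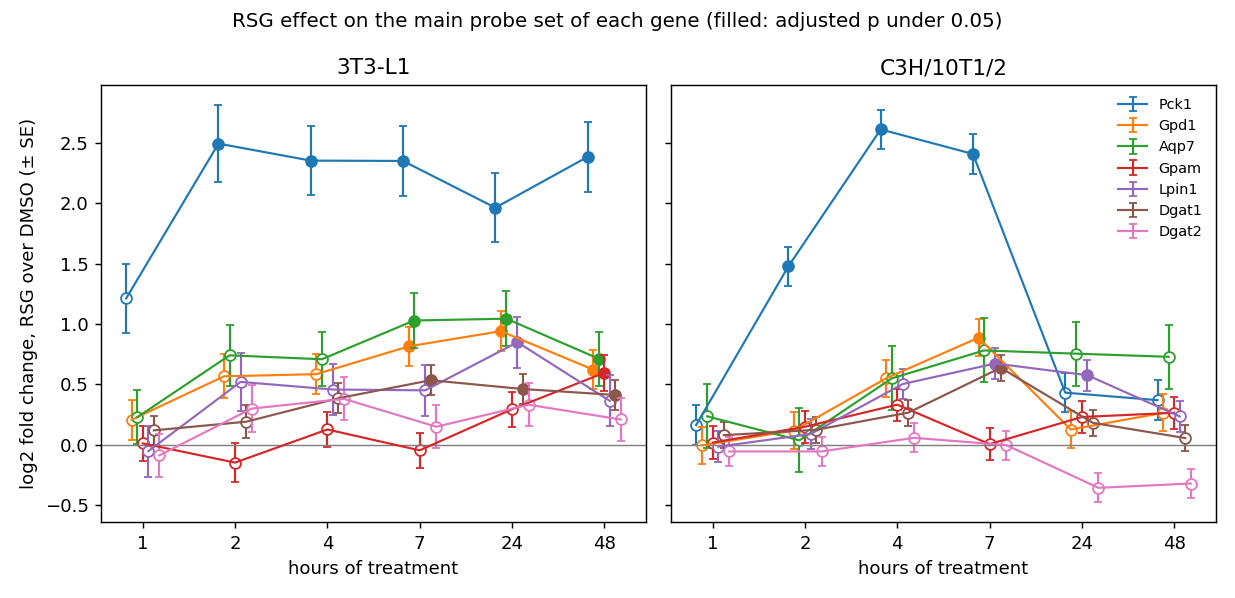
Log2 fold change of RSG over DMSO (± SE from limma) against hours of treatment (times evenly spaced) for the main probe set of each gene, with 3T3-L1 on the left and C3H/10T1/2 on the right. Filled points have an adjusted p under 0.05. Pck1 stays at 1.96 and 2.38 at 24 and 48 hrs in 3T3-L1 and is at 0.43 and 0.37 in C3H/10T1/2.

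The difference between the lines in the RSG effect was tested directly, as the effect in 3T3-L1 minus that in C3H/10T1/2. For Pck1 it was 1.53 (SE 0.34, adjusted p = 0.0195) at 24 hrs and 2.01 (SE 0.34, adjusted p = 0.000222) at 48 hrs. At 24 hrs the call was lost on leaving out any of 4 arrays, 3T3-L1 RSG replicate 2 (1.36, adjusted p = 0.0849), 3T3-L1 DMSO replicate 2 (1.54, adjusted p = 0.0526) or 3 (1.43, adjusted p = 0.0922), or C3H/10T1/2 DMSO replicate 3 (1.54, adjusted p = 0.0516). Without the replicate block Pck1 was the only gene of the set called, 1 of 14 probe sets at each time, where 0.257% and 0.848% of all probe sets were called at 24 and 48 hrs. Gpd1 at 24 hrs had a difference of 0.81 (95% interval 0.35 to 1.27, adjusted p = 0.124), and Dgat2 had 0.69 (95% interval 0.25 to 1.12, adjusted p = 0.222). With the block, 2 of the 14 were called at each time, against 0.897% and 2.14% of all, and Gpd1 at 24 hrs was among them (adjusted p = 0.0187). Without 3T3-L1 DMSO replicate 1 both genes passed, Gpd1 at 1.00 (adjusted p = 0.0267) and Dgat2 at 0.89 (adjusted p = 0.0432). At 1, 2, 4 and 7 hrs none of the 14 was called in limma, against 0% of all probe sets at the earlier times and 0.0164% at 7 hrs, and 1, 1, 0 and 1 had an unadjusted p under 0.05. At 7 hrs the Pck1 effects differed by -0.06 (95% interval -0.73 to 0.62).

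The rise between 4 and 24 hrs in C3H/10T1/2 was shared by most of the set. With DMSO, 10 of the 13 probe sets were higher at 24 hrs, where 8.23% of all probe sets were called in either direction and 3.97% were higher. The median over the 13 was 0.67, against -0.02 over all probe sets. With RSG, 5 of the 13 were higher, against 5.01% of all in either direction and 1.94% higher. By main probe set, Gpam alone of the 7 genes was not called with DMSO (-0.01, adjusted p = 0.983). Aqp7 rose by 0.95 with DMSO (adjusted p = 0.021, lost without replicate 1 or 2 of 4 hrs or 2 or 3 of 24 hrs, up to 0.117), Dgat2 by 0.67 (adjusted p = 0.000328) and Dgat1 by 0.62 (adjusted p = 0.000216). Between 1 and 4 hrs with DMSO, 5 of the 13 were lower, where 5.5% of all were called in either direction and 2.2% were lower, and these included Dgat1 (-0.41, adjusted p = 0.0183) and Dgat2 (-0.43, adjusted p = 0.032, or 0.0671 after quantile normalization). Dgat1 no longer passed without replicate 2 or 3 of 1 hr or 1 or 3 of 4 hrs (adjusted p up to 0.0869), and Dgat2 without any array but replicate 1 of 4 hrs (adjusted p up to 0.179), so that 3 probe sets were left without replicate 2 or 3 of 1 hr or 3 of 4 hrs. In 3T3-L1 with DMSO, 1 of 14 was called between 4 and 24 hrs, against 0.488% of all. It was Pck1 (1.34, adjusted p = 0.0225), and that call was lost without any 1 of the 6 arrays compared.

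Set against 1 hr with DMSO, the main probe set of Pck1 alone was higher at 24 hrs in 3T3-L1, and those of Pck1, Gpd1 and Aqp7 were higher at 48 hrs. There 2 of 14 probe sets were higher at 24 hrs (0.949% of all called in either direction) and 4 at 48 hrs (1.96%), among them Aqp7 at 48 hrs by 1.38 (adjusted p = 0.000281) and Gpd1 by 0.78 (adjusted p = 0.00591). Of the 2 at 24 hrs, Pck1 and the second probe set of Aqp7, 1 was left without replicate 1 or 2 of either time. At 4 hrs none of the 14 differed by the limma call (0.0721% of all), and 2 had an unadjusted p under 0.05. For C3H/10T1/2, 1 of 13 was higher and 2 were lower at 24 hrs (11.8% of all called in either direction). At 48 hrs 1 was higher (10.2%), no larger a share than that over all probe sets. With the replicate block 5 and 3 were called, against 16.9% and 15.3% of all. Without replicate 1 of 1 hr, 2 were called at 48 hrs. The higher one was Pck1, by 0.82 (adjusted p = 0.00068) and 0.90 (adjusted p = 0.000263), and the lower ones were both probe sets of Lpin1, the main one at -0.67 (adjusted p = 0.000419). With RSG in 3T3-L1, 4 of 14 were higher at 24 than at 4 hrs (10.2% of all), namely Pck1 by 0.95 (adjusted p = 0.0294), Gpd1 by 0.79 (adjusted p = 0.00138) and both probe sets of Lpin1. Without replicate 3 of 4 hrs or any 1 array of 24 hrs, 2 of these 4 were left. Pck1 was lost without replicate 1 or 3 of 4 hrs or 2 or 3 of 24 hrs (adjusted p up to 0.141), and the main probe set of Lpin1 without replicate 2 of 4 hrs or 1 of 24 hrs (up to 0.103).

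The change of the RSG effect after 7 hrs was called for Pck1 alone in C3H/10T1/2, 1 of 13 probe sets at 24 hrs (0.205% of all) and at 48 hrs (0.323%). With the replicate block 2 and 3 of the 13 were called, against 1.31% and 1.54% of all. Without DMSO replicate 1 of 7 hrs, 2 were called at each time, and at 48 hrs also without RSG replicate 2 of 7 or of 48 hrs. In 3T3-L1 none of the 14 was called at 24 hrs (0.533% of all) or at 48 hrs (2.55%), with 1 at an unadjusted p under 0.05 each time. The effect on Dgat1 in C3H/10T1/2 at 48 hrs minus that at 7 hrs was -0.58 (adjusted p = 0.103, or 0.0363 with the block).

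**Figure D4:**
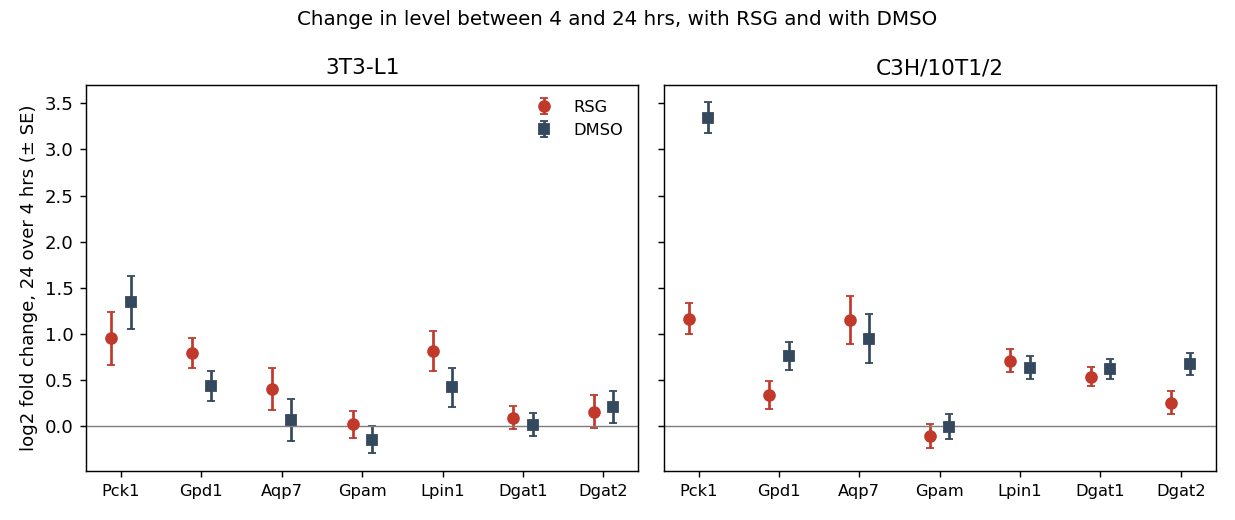
Log2 fold change between 4 and 24 hrs (24 over 4 hrs, ± SE from limma) of the main probe set of each gene, with RSG (circles) and with DMSO (squares), for 3T3-L1 on the left and C3H/10T1/2 on the right. Pck1 in C3H/10T1/2 is at 1.17 with RSG and 3.35 with DMSO.

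Levels with DMSO also differed between the lines, given as the mean over the 6 times in 3T3-L1 minus that in C3H/10T1/2. All probe sets had a median of 0.33, which was 0.08 after quantile normalization, and 77.5% were called. Against that background, Pck1 was lower in 3T3-L1, at -2.20 (SE 0.10), as were Aqp7 at -0.93, Dgat2 at -0.72 and Lpin1 at -0.64. Gpam (0.31) and Dgat1 (0.23) were higher in 3T3-L1, both by less than the median of all probe sets, and Gpd1 was at -0.21 (adjusted p = 0.00456, or 0.192 after quantile normalization). Of the 14 probe sets, 6 were called higher and 7 lower, or 4 higher and 6 lower after quantile normalization. Over all calls, 71.1% were higher in 3T3-L1, or 54.4% after quantile normalization. The fit counted the DMSO arrays of a line as separate, though each batch belonged to 1 line and may have served several times. The SE and calls of this comparison thus do not measure the spread between batches. The gene values above are those of the main probe sets. The probe sets of Lpin1 disagreed, with the second at 0.46. Those of Pck1 and Gpd1 disagreed too. The second Pck1 probe set (1455209_at), whose signals were near or under the limit, had the higher DMSO mean in 3T3-L1 at each of the 6 times. The same held for the Gpd1 probe set 1439396_x_at.

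Other genes of the pathway were taken from a list of 24, of which 16 had a probe set annotated to them alone, 26 probe sets in all. In 3T3-L1, 1, 5 and 4 of the 22 tested were higher at 7, 24 and 48 hrs and 0, 1 and 0 were lower. Over all probe sets, 1.22%, 4.79% and 6.2% were higher at these times, and 2.04%, 11.8% and 14.3% were called in either direction. For C3H/10T1/2, 1, 5 and 3 of 20 were higher and 2, 1 and 0 lower, beside 1.65%, 3.65% and 2.79% higher and 2.85%, 7.72% and 5.41% in either direction. None was called by limma at 1, 2 or 4 hrs in either line. At an unadjusted p under 0.05 there were 0, 0 and 2 of the 22 for 3T3-L1, against 0, 0 and 3 of the 20 for C3H/10T1/2. Medians of the log2 fold change over the list at 24 hrs were 0.40 for 3T3-L1 and 0.28 for C3H/10T1/2, beside -0.01 and -0.07 over all probe sets.

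Among the genes listed under glycerol supply, Pgp was higher with RSG than with DMSO in both lines, in C3H/10T1/2 with RSG means below that of 1 hr. Pgp is a phosphatase that acts on glycerol 3-phosphate and phosphoglycolate, so it uses up glycerol 3-phosphate rather than making it. Its probe set 1452919_a_at averaged 908 with RSG and 388.5 with DMSO at 24 hrs in 3T3-L1, a log2 fold change of 1.23 (adjusted p = 4.09e-07), and 873.1 with RSG and 460.1 with DMSO in C3H/10T1/2, a log2 fold change of 0.94 (adjusted p = 4.62e-05). The other Pgp probe set (1428788_at) was at 0.65 (adjusted p = 0.0591) at 24 hrs in 3T3-L1 and was not called there. For C3H/10T1/2 it was called at 24 hrs (0.65, adjusted p = 0.0278) and 48 hrs (0.66, adjusted p = 0.0302), but each call was lost on leaving out any of 4 arrays (adjusted p up to 0.182 and 0.183). Pcx, pyruvate carboxylase, which makes the oxaloacetate that Pck1 uses, averaged 4519.8 with RSG and 2298.7 with DMSO at 24 hrs in 3T3-L1 (log2 fold change 0.98, adjusted p = 3.07e-05). At 48 hrs the log2 fold change of Pcx was 1.02 (adjusted p = 1.31e-05), and the effect in 3T3-L1 exceeded that in C3H/10T1/2 by 0.90 (SE 0.19, adjusted p = 0.00678). Without 3T3-L1 DMSO replicate 1 that difference was 0.75 (adjusted p = 0.0597). Pck2, the mitochondrial counterpart of Pck1, was lower at 24 hrs in 3T3-L1 (1425615_a_at, -0.56, adjusted p = 0.0142) and in C3H/10T1/2 (-0.54, adjusted p = 0.0284). Each of these Pck2 calls was lost on leaving out any of 3 arrays, with adjusted p up to 0.118 and 0.13. Another Pck2 probe set (1452620_at) was lower at 7 hrs in C3H/10T1/2 (-0.75, adjusted p = 0.0303), a call lost without any of 5 arrays. Neither Pck2 probe set was called at a line and time where the other was. Aqp9 (1424011_at) was called lower at 7 hrs in C3H/10T1/2, but both group means, 3.7 with RSG and 17.1 with DMSO, were under the limit and no fold is given.

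Among the acyltransferases, Agpat3 was higher in both lines and at both late times. Its log2 fold changes were 1.00 (adjusted p = 2.19e-07) at 24 hrs and 0.99 (adjusted p = 1.12e-07) at 48 hrs in 3T3-L1, and 0.95 (adjusted p = 2.18e-07) and 0.85 (adjusted p = 1.14e-06) in C3H/10T1/2. Gpat4, an acyltransferase of the endoplasmic reticulum, was higher at 7 hrs in C3H/10T1/2 (1450776_at, 1.15, adjusted p = 0.000461). In 3T3-L1 Gpat4 was higher at 24 hrs (0.78, adjusted p = 0.0135) and 48 hrs (0.73, adjusted p = 0.0176), both lost without RSG replicate 1 or 1 DMSO array (replicate 3 at 24 hrs and 2 at 48 hrs), with adjusted p up to 0.0729 and 0.136. Agpat1 (1421025_at) was higher at 24 hrs in C3H/10T1/2 (0.72, adjusted p = 0.00658) and in 3T3-L1 (0.55, adjusted p = 0.0353), where leaving out any of 5 arrays lost the call. The other probe sets of Agpat1 (1421024_at) and Gpat4 (1422841_at) were called in no RSG comparison. Mogat1, which acylates monoacylglycerol, was higher at 24 hrs in C3H/10T1/2 (0.73, adjusted p = 0.0323), and leaving out any of 4 arrays lost it. So Agpat3 and Pgp stayed called at 48 hrs in C3H/10T1/2, where no probe set of the 7 genes did without the replicate block and Aqp7 did with it (adjusted p = 0.0411).

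**Figure D5:**
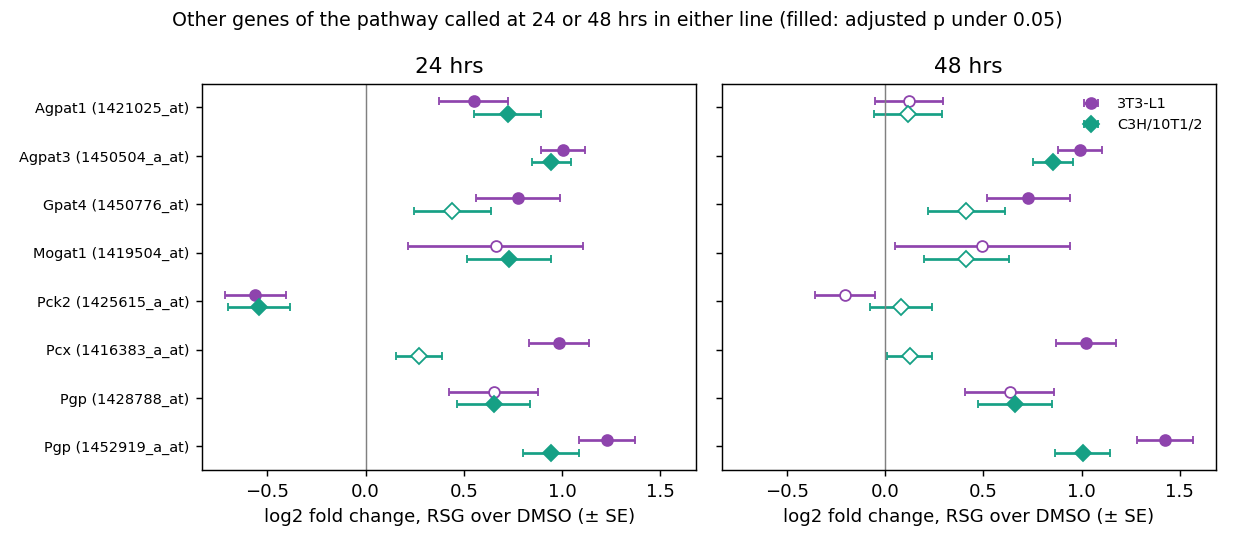
Log2 fold change of RSG over DMSO (± SE from limma) of the other pathway probe sets called at 24 or 48 hrs in either line, with 3T3-L1 (circles) above C3H/10T1/2 (diamonds) for each. Filled points have an adjusted p under 0.05. Agpat3 lies between 0.85 and 1.00 in both lines at both times, and Pcx is at 0.98 and 1.02 in 3T3-L1.

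Over the 71 arrays, with each line's mean removed, Gpd1 and Pck1 had a Pearson r of 0.87, and Aqp7 had 0.80 with Pck1 and 0.79 with Gpd1. Gpam stood apart, with r between -0.00 and 0.29 with the other 6 genes. The probe sets of other genes most like Pck1 were those of Noct (0.90), Miga2 (0.87) and Sh2b2 (0.87). Those most like Gpd1 were Cidec (0.91), Pex16 (0.88) and Pck1 itself (0.87), and for Aqp7 they were Pde4dip (0.83), 1600014C10Rik (0.83) and Adig (0.80). Lpin1 was most like Hipk2 (0.84), Noct (0.82) and 1700037H04Rik (0.82), and Dgat1 like Apmap, Miga2 and Cavin2 (all 0.80). The nearest to Gpam were Msh6 (0.66), Wipi2 (0.60) and Acer2 (0.59), and the nearest to Dgat2 were Gnb5 (0.58), Phlda3 (0.58) and Pmepa1 (0.55). These points share treatment, time and array, so the correlations describe the arrays and carry no test.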

How the data were processed

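The authors deposited 1 table of signal intensities on a linear scale for 71 arrays, made with MAS5 according to the submitters' processing notes. The version and the scaling target were not given in the sources used here, and the trimmed mean, leaving out 2% at each end, was 150.05 to 150.07 on every array. Scaling to a common mean hides any change in total RNA. The members and gene lists were chosen with earlier results of these data known. Signals of 0 (132 values) were set to 0.1, and log2 values were tested in limma 3.58.1 (R 4.3.3) with an intensity trend, with 1 fit over the 12 groups of each line and a joint fit for differences between lines. Probe sets whose highest group mean was at least 19.9, the 95th percentile of 27 Bacillus controls, were tested, and p-values were adjusted by Benjamini-Hochberg over all of them. A call is an adjusted p under 0.05. Gene names came from the platform annotation, in which 20380 probe sets had 1 gene, 691 several and 1555 none.

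Besides the 8 genes, the text names pathway genes called at any time with no overlap between arrays, and the 3 probe sets most correlated with each gene. In C3H/10T1/2 all 18 pairs of arrays with the same number deviated together (r 0.132 to 0.307), so the numbers paired the arrays. Alternatives were no trend, no filter, signals raised to the limit, quantile normalization, the replicate block, only the groups compared, each array left out, and the methods' test (unadjusted p under 0.05 and 1.2-fold). The procedure was also run on simulated data with noise drawn independently for each array. That run left out the pairing of arrays and does not speak to it. Figures used matplotlib 3.10.9.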

Additional observations from a re-analysis of the deposited data

Results flagged for a closer look

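The RSG effect on Pck1 differed between the lines by the test of the difference itself, by 1.53 (SE 0.34) at 24 hrs and 2.01 (SE 0.34) at 48 hrs on the log2 scale, 3T3-L1 minus C3H/10T1/2. The effect on Pcx differed by 0.90 (SE 0.19) at 48 hrs in the same direction. For the second Dgat2 probe set at 48 hrs, all RSG arrays lay above all DMSO arrays in 3T3-L1 and below them in C3H/10T1/2, a difference of 0.95 that did not pass the test. The value in 3T3-L1 was 0.73, or 0.31 without DMSO replicate 1. No group was large enough to look for single outlying arrays.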

How the results depend on the processing

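No main probe set that was called, in the main fit or under an alternative, changed direction between them. Signs of values called in neither were not checked. The causes of the changes below were not tested. The counts are of called probe sets of the 7 genes. With quantile normalization they were 2 at 4 hrs in 3T3-L1 (0.815% of all probe sets). The C3H/10T1/2 arrays had 2, 2 and 1 at 4, 24 and 48 hrs, against 0.868%, 7.28% and 5.56% of all. Over time in C3H/10T1/2 with DMSO they were 6 for 24 against 1 hr and 2 for 48 against 1 hr. Of all 16123 probe sets, 1900 and 1690 were called in these comparisons. The change of effect between 7 and 48 hrs had 2 (0.341% of all). Signals raised to the limit gave 2 at 4 hrs in C3H/10T1/2 (0.775% of all). Only the groups compared gave 2 at 48 hrs in 3T3-L1 (6.81% of all) and 3 at 7 hrs in C3H/10T1/2 (0.875%). In 3T3-L1 at 1, 2 and 4 hrs the methods' test gave 1, 4 and 7 of 14, against 4.14%, 4.29% and 6.78% of all probe sets. In C3H/10T1/2 at 2, 4, 24 and 48 hrs it gave 2, 8, 5 and 4 of 13, against 3.98%, 7.94%, 19.3% and 15.6%.

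With the replicate block, the counts in C3H/10T1/2 were 4, 3 and 1 at 4, 24 and 48 hrs, against 1.49%, 12.6% and 9.43% of all probe sets. They were 5 and 3 for DMSO at 24 and 48 hrs against 1 hr (16.9% and 15.3%). For the change of effect between 7 hrs and 24 or 48 hrs they were 2 and 3 (1.31% and 1.54%). In 3T3-L1 all 17 pairs of same-numbered arrays also had a positive r (0.019 to 0.261), over 0.1 in 14 of them. The numbers may thus pair these arrays too, more weakly. The main fit left the pairing out in both lines. In 3T3-L1 the block gave 2 at 4 hrs (1.22% of all) and 2 for DMSO at 24 against 4 hrs (1.15%). It gave 1 for the change of effect between 7 and 48 hrs (5.03%). The line difference in effect with the block had 2 calls at 24 and 2 at 48 hrs (0.897% and 2.14% of all), among them Gpd1 at 24 hrs (adjusted p = 0.0187).

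Leaving out 1 array gave 0 to 0, 1 to 1, 1 to 1, 2 to 4, 3 to 8 and 4 to 8 calls at the 6 times in 3T3-L1, and 1 to 1, 1 to 2, 6 to 6 and 1 to 2 at 2, 4, 7 and 24 hrs in C3H/10T1/2. For the line difference in effect it gave 0 to 3 at 24 hrs and 1 to 3 at 48 hrs. With DMSO in 3T3-L1 it gave 1 to 2 for 24 against 1 hr, 3 to 4 for 48 against 1 hr and 0 to 0 for 24 against 4 hrs. In C3H/10T1/2 these were 2 to 3, 1 to 2 and 7 to 9, and 3 to 4 for 4 against 1 hr. With RSG at 24 against 4 hrs it gave 2 to 3 calls in the 3T3-L1 arrays and 4 to 5 in the C3H/10T1/2 arrays, where the change of effect had 1 to 2. With 3 arrays a group, their number limits the precision of every value.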
